A study of Mus musculus with 6 samples.

Results

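Immediate early genes are transcribed within minutes of a stimulus by transcription factors that the cell already holds. The 10 described here are *Fos*, *Fosb*, *Junb*, *Egr1*, *Egr2*, *Egr3*, *Nr4a1*, *Ier2*, *Arc* and *Dusp1*, out of 31169 genes in the count table, and all 10 passed the filter on low counts that left 17707 genes for testing. They were found by their symbols and were chosen by their levels in these same libraries, where 1 of the saline libraries stands apart. Their values are therefore given library by library as a description. Where a fit across all genes called a member, the call stands beside the share of all genes called, and nothing is read from it.

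Calcium entry and growth factor signals reach these genes through the Ras-MAP kinase cascade and calcium-dependent kinases, which phosphorylate serum response factor (SRF) partners and the cAMP response element binding protein (CREB) at their promoters. Most of the proteins they encode are transcription factors that carry the signal to later genes, while others act at synapses or switch the kinases off. Their transcripts are short lived. In retina and brain they are widely used as marks of recent neuronal activity and of injury or handling.

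RNA came from whole retinas of C57BL/6 mice that were injected into the anterior chamber of the eye at 1 month of age and sampled 4 weeks later, at 2 months. Of the 6 libraries, 3 were from saline-injected retinas and 3 from retinas injected with 15 μm microbeads, which block aqueous outflow and raise intraocular pressure; mice were male and both eyes were injected, per the study's methods. No allele or further agent is named for either group. The labels do not tie a library to an animal, so the spread between libraries may be in part technical.

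The total count was from 36085737 to 46481382 in the saline and from 13574949 to 19834366 in the microbead libraries. Markers of the labelled tissue, the retina, were present throughout: the bipolar cell list summed to 1007 to 1426 CPM and the Müller glia list to 3961 to 8149 CPM per library. The retinal ganglion cell list was at 446 CPM in saline replicate 1 and from 1032 to 1487 CPM in the other 5 libraries, and the microglia list at 209 CPM in saline replicate 1 and from 49.4 to 113 CPM in the others, so that the comparisons without saline replicate 3 rest in part on a library that differs in these lists. The description labels give the libraries of each group a series of names of their own, while the sample titles run on through both groups. Whether the groups were prepared as separate series is not stated, and such a difference and injection could not be told apart. Mitochondrial genes made up 3.19% to 3.57% of counts in the saline and 8.90% to 10.6% in the microbead libraries. Saline replicate 3 stood apart from the other 5 libraries. In counts per 1e+06 counts of the library (CPM), and over the 15088 genes whose mean reached 1 CPM, it lay more than 2-fold below the median of the other 5 for 1795 genes, against 390 to 1014 genes in the other libraries, and more than 2-fold above it for 636, against 343 to 879 in the other libraries. Every comparison of the groups below is given with and without it.

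Together the 10 genes made up 3183 CPM in saline replicate 3, which was 24.9 times the median of the other 5 libraries and 19.7 times the highest of them. The sums in saline replicates 1 and 2 were 159.9 and 102.5 CPM. Those in microbead replicates 1, 2 and 3 were 116.8, 127.6 and 161.8 CPM, so that outside saline replicate 3 the groups overlapped. Each of the 10 genes was highest in saline replicate 3, where 25.4% of all tested genes were, and each lay more than 2-fold above the median of the other 5 libraries, as 5.57% of all tested genes did and 14.9% lay more than 2-fold below it. These counts follow from how the genes were chosen and carry no weight of their own.

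**Figure D1:**
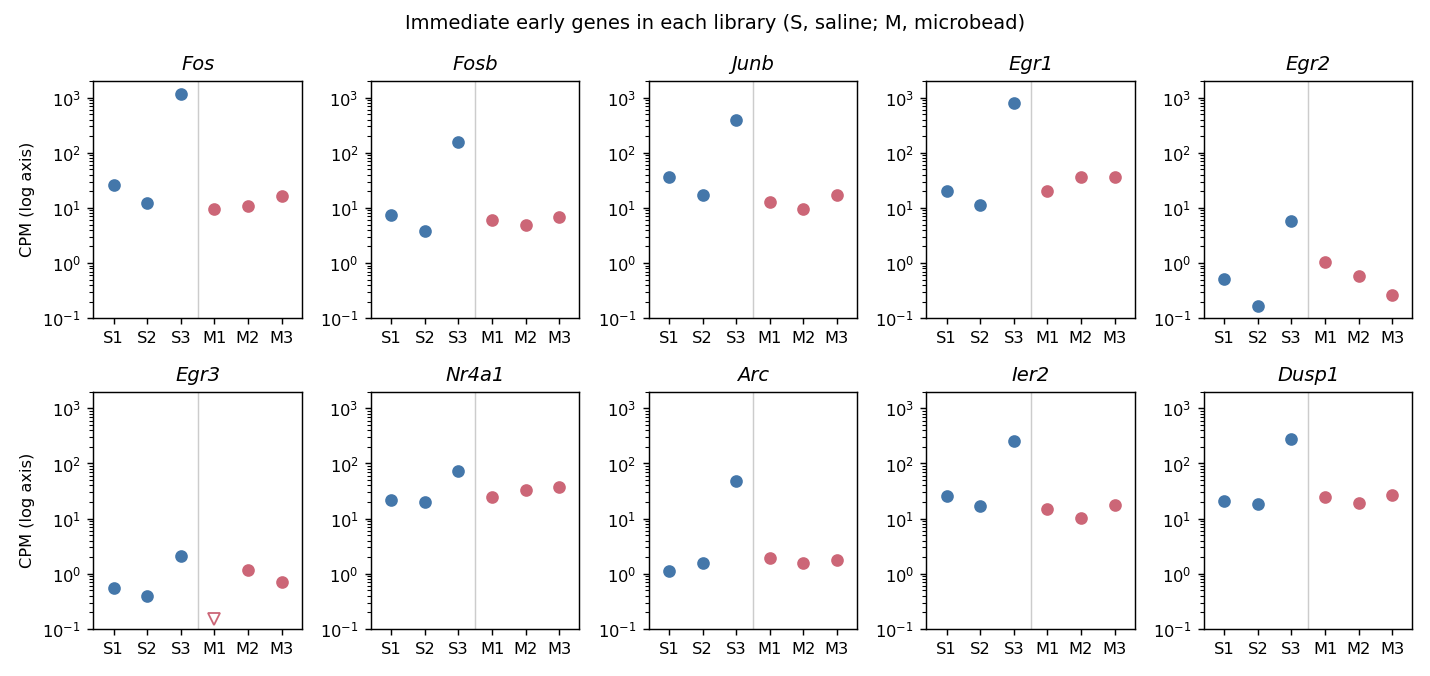
CPM (log axis) of each immediate early gene in the 3 saline (S1 to S3, blue) and 3 microbead (M1 to M3, red) libraries, 1 point a library. The open triangle marks a count of 0, placed at the level of 3 counts (0.151 CPM). In every panel S3 is the highest point, from 1179 CPM for *Fos* to 2.11 CPM for *Egr3*.

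*Fos*, *Fosb* and *Junb* encode subunits of AP-1, the dimeric factor in which a Fos protein pairs with a Jun protein. *Fos* was at 26.2, 12.4 and 1179 CPM in saline replicates 1, 2 and 3 and at 9.73, 10.8 and 16.4 CPM in microbead replicates 1, 2 and 3. The level in saline replicate 3 was 94.9 times the median of the other 5 libraries, while saline replicate 2 lay among the microbead libraries and saline replicate 1 above all 3 of them. *Fosb*, a close relative of *Fos*, was at 7.38, 3.82 and 160 CPM in the saline and 5.92, 4.98 and 6.76 CPM in the microbead libraries, a 27.0-fold excess of saline replicate 3 over the median of the rest. *Junb*, a Jun family subunit, was at 35.6, 16.9 and 401 CPM in the saline and 12.6, 9.68 and 17.5 CPM in the microbead libraries, a 23.8-fold excess. In all 3 genes the microbead libraries fell within or next to the range of saline replicates 1 and 2.

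*Egr1*, *Egr2* and *Egr3* encode zinc finger factors that bind GC-rich sites, and *Nr4a1* an orphan nuclear receptor. *Egr1* was at 20.3, 11.2 and 786 CPM in the saline and 20.4, 37.0 and 36.5 CPM in the microbead libraries, and saline replicate 3 was 38.5 times the median of the rest. *Egr2* was scarce, at 0.505, 0.166 and 5.79 CPM in the saline and 1.03, 0.578 and 0.260 CPM in the microbead libraries, which rests on 19, 8 and 203 and on 20, 8 and 4 counts. *Egr3* was scarcer still, at 21, 19 and 74 counts in the saline and 0, 16 and 11 counts in the microbead libraries. The 0 counts of *Egr3* in microbead replicate 1 allow a level of up to 0.151 CPM, from counting error alone. The excess of saline replicate 3 was 11.5-fold for *Egr2* and 3.79-fold for *Egr3*. *Nr4a1* had the smallest excess of the 10, at 2.93-fold: it was at 21.5, 20.4 and 73.2 CPM in the saline and 25.0, 32.8 and 37.7 CPM in the microbead libraries. *Nr4a1* and *Egr3* were thus the members nearest the 2-fold line, at 1.55 and 1.80 log2 units above the median of the rest, and no member lay below that line.

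*Arc* encodes a synaptic protein that promotes the removal of AMPA receptors from the membrane. It was at 1.14, 1.56 and 48.9 CPM in the saline and 1.96, 1.59 and 1.75 CPM in the microbead libraries, a 30.8-fold excess of saline replicate 3. *Ier2*, a small gene without introns, was at 25.7, 17.0 and 251 CPM in the saline and 15.2, 10.1 and 17.7 CPM in the microbead libraries, a 14.8-fold excess. *Dusp1* encodes a phosphatase that inactivates MAP kinases and so feeds back on the cascade above it. Its levels were 20.8, 18.7 and 276 CPM in the saline and 25.0, 18.9 and 26.4 CPM in the microbead libraries, a 13.3-fold excess. For *Arc* and *Dusp1*, the 5 libraries other than saline replicate 3 were close together: the microbead libraries lay above both saline libraries for *Arc*, and for *Dusp1* 2 of them did while microbead replicate 2 lay between the saline libraries.

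The excess was unequal, so that the make-up of the group changed with its level. *Fos* made up 37.0% of the summed CPM of the 10 genes in saline replicate 3, against 16.4% and 12.1% in saline replicates 1 and 2 and 8.33% to 10.2% in the microbead libraries. With *Egr1*, it made up 61.7% of the sum in saline replicate 3. Per kilobase of exon, *Fos* ranked 47 of 17649 tested genes in saline replicate 3 and 7582 by the median of the other 5 libraries. *Junb*, *Egr1* and *Ier2* ranked 166, 165 and 179 per kilobase in saline replicate 3, while *Egr2* and *Egr3* stayed among the less abundant genes there, at ranks 11275 and 14200. Ranked by deviation of saline replicate 3 among those 15088 genes, *Fos* was number 2, *Egr1* 4, *Arc* 6, *Fosb* 7 and *Junb* 10, and *Nr4a1* was 170.

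On the log2 scale, the median deviation of the 10 genes from the median of the other 5 libraries was 4.23 in saline replicate 3 (range 1.55 to 6.56). It was -0.22 and -0.55 in saline replicates 1 and 2, and -0.31, -0.27 and 0.26 in microbead replicates 1, 2 and 3. Over all tested genes the median deviation of saline replicate 3 was 0.01. Between the other 5 libraries the 10 genes did not move as a block: the median correlation of *Fos* with the other members over the 6 libraries was 0.95 and over the 5 without saline replicate 3 was 0.03. The same value changed from 0.94 to -0.25 for *Arc* and from 0.97 to 0.51 for *Fosb*. These correlations are descriptions over 6 and 5 libraries.

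**Figure D2:**
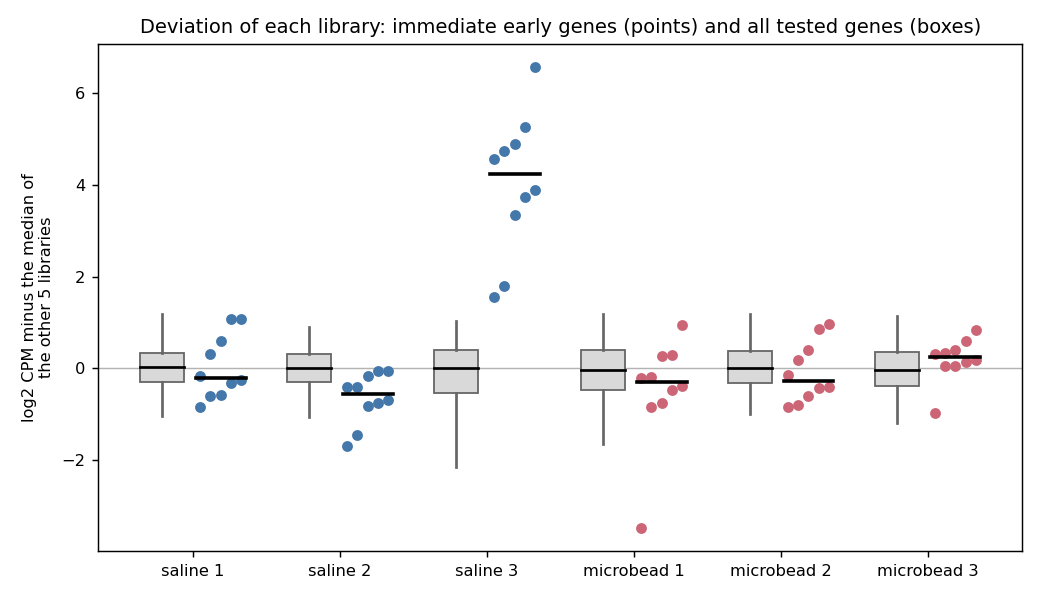
Deviation of log2 CPM in each library from the median of the other 5, for the 10 immediate early genes (points, short bar at their median) and all 17707 tested genes (box, quartiles; whiskers, 5th and 95th percentile). The members' median is 4.23 in saline replicate 3 and between -0.55 and 0.26 in the other 5 libraries, while the boxes are centred near 0 in all 6.

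The regulatory DNA in front of the genes was read from RefSeq (GRCm38.p6, a later patch of the build of the count table, GRCm38.p5) as the 250 bases before each start site, for the 6 members matched: *Fos*, *Fosb*, *Junb*, *Egr2*, *Nr4a1* and *Dusp1*. Shown here are the *Fos* promoter, since *Fos* stood furthest apart, and the promoters of *Egr2*, *Dusp1* and *Nr4a1*, which differ in the sites they hold. They lie at chr12:85473640-85473889 (+ strand, *Fos*), chr10:67537619-67537868 (+ strand, *Egr2*, the third of its 5 annotated promoters), chr17:26508473-26508722 (- strand, *Dusp1*) and chr15:101266596-101266845 (+ strand, *Nr4a1*). Capitals mark the cAMP response element TGACGTCA and its core site TGACG, the CArG box bound by SRF, the EGR site GCGNGGGCG and the TATA box TATAAA, each on either strand and written as it reads on the gene's strand.
Fos: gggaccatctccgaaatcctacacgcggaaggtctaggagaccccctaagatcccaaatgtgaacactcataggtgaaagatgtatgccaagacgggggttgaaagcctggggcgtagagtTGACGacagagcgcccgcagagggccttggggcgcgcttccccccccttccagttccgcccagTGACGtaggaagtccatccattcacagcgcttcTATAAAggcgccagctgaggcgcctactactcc
Egr2: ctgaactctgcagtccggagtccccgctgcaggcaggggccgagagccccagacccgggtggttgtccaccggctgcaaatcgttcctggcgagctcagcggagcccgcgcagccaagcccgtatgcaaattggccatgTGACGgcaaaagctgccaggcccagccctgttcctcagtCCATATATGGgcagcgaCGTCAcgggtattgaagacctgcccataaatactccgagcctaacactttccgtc
Dusp1: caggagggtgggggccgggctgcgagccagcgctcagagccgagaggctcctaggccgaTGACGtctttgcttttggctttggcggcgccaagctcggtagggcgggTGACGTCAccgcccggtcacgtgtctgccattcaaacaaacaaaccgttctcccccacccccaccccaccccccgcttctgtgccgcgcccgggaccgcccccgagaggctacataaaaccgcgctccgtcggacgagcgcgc
Nr4a1: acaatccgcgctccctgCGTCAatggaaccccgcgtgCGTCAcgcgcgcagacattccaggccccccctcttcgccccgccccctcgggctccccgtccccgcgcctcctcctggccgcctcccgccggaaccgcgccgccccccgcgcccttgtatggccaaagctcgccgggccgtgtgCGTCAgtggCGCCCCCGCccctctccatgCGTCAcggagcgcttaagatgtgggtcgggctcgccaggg

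The core site TGACG was present in at least 1 promoter of all 6 genes, in 3 of the 5 promoters of *Egr2*, and in 19.8% of the 27025 genes with a promoter in the table. In *Fos* it began 129 and 66 bases before the start site, and a TATA box began 33 bases before it. *Nr4a1* held 4 core sites and an EGR site 60 bases before the start, and *Fosb* the other EGR site among the members. *Dusp1* held the only complete TGACGTCA, 143 bases before the start, which overlaps 2 of its 3 core sites. *Egr2* was the only gene of the 6 with a CArG box inside the windows read, and sites further upstream were not searched. In the promoter shown, the box CCATATATGG began 72 bases before the start. The same letters began 73 and 133 bases before the starts of *Egr2* promoters 4 and 5. *Egr2* promoter 2 held a different box, CCTTTTTTGG, 72 bases before its start. Among all genes, a CArG box was found in 1.62%, TGACGTCA in 1.77%, an EGR site in 5.33% and TATAAA in 14.3%. The AP-1 site TGANTCA, found in 7.82% of all genes, was in no window of the 6 genes. Of the 47 other early genes with a promoter in the table, 26 (55.3%) held the core site. These matches describe letters in a window, and no binding was measured.

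Most members are compact genes. The median span was 5287 bases with a median of 1.5 introns, against 25176 bases and 8 introns for the 14272 tested protein-coding genes matched to the GENCODE vM21 annotation, and *Junb* and *Ier2* have no intron. The span was 1522 bases for *Ier2* but 20527 for *Nr4a1*, which has 6 introns, and 56539 for *Dusp1* as annotated. The pentamer ATTTA, the core of AU-rich elements that mark messages for rapid decay, occurred at least 3 times in the 3′ untranslated region of 5 of the 10 members and of 34.3% of all tested protein-coding genes. *Egr3* had 7 copies, *Dusp1* and *Fos* 4 each, and *Arc* and *Ier2* none. The overlapping pairs in *Fos* (chr12:85477100-85477129, + strand) and *Dusp1* (chr17:26506157-26506186, - strand), both in the 3′ untranslated region on GRCm38, are shown with ATTTA in capitals.
Fos: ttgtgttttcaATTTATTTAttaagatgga
Dusp1: agctggtccttATTTATTTAacacccccct

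The comparison of microbead with saline retinas asks which transcripts differ after 4 weeks of raised pressure. With all 6 libraries, edgeR's quasi-likelihood test called 12.8% of all tested genes, 6.46% as higher and 6.31% as lower in microbead retina, and the 3 microbead and 3 saline values did not overlap in 37.8% of all tested genes. Among the 10 members 1 was called, *Junb*, lower in microbead retina, and in all 10 the groups overlapped, saline replicate 3 lying at the top and the other 2 saline libraries among the microbead libraries or near them. The fitted log2 fold change of microbead minus saline was -5.04 (SE 1.48) for *Fos*, -3.51 for *Junb*, -3.27 for *Fosb* and *Arc*, -3.12 for *Egr1* and -2.77 for *Ier2*. It was -2.16 for *Dusp1*, -1.75 for *Egr2*, -0.74 for *Egr3* and -0.27 for *Nr4a1*, with standard errors from 0.45 (*Nr4a1*) to 1.48 (*Fos*) and a median of -2.95 over the 10 genes against -0.03 over all tested genes. All 10 fitted values were thus below 0, with saline replicate 3 in the fit. The call of *Junb* was lost without any 1 of the microbead libraries and under RLE, upper-quartile or library-total scaling. With limma-voom the fitted values were smaller in size for most members, at -2.62 for *Fos*, -0.92 for *Egr1*, -0.29 for *Egr2* and -1.18 for *Arc*.

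Without saline replicate 3 the fitted fold change changed sign for 7 of the 10 genes, and was smaller in size for all but *Nr4a1*. The median over the 10 genes was 0.29, with 7 of 10 above 0, against -0.03 over all genes tested. *Egr1* was 0.99 higher in microbead retina on the log2 scale, *Egr2* 0.93, *Nr4a1* 0.60, *Arc* 0.39, *Egr3* 0.34, *Dusp1* 0.24 and *Fosb* 0.07. *Junb* was at -0.99, *Fos* at -0.65 (SE 0.34) and *Ier2* at -0.57. In this fit edgeR called 0 of the 10 and 8.42% of the 17577 genes tested, 4.1% as lower in microbead retina. At an unadjusted p under 0.05, 3 of the 10 passed, as did 27.4% of all genes tested, DESeq2 called 1 (14.7% of all genes) and limma-voom 0 (9.75%). Each microbead library lay above both remaining saline libraries for *Egr1*, *Nr4a1* and *Arc*, 3 of the 10, as did 22.1% of all tested genes, and for no member did each lie below. The gap was small for *Egr1*, at 20.4 CPM in microbead replicate 1 and 20.3 CPM in saline replicate 1. It was also small for *Arc*, at 1.59 CPM in microbead replicate 2 (22 counts) and 1.56 CPM in saline replicate 2 (75 counts).

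**Figure D3:**
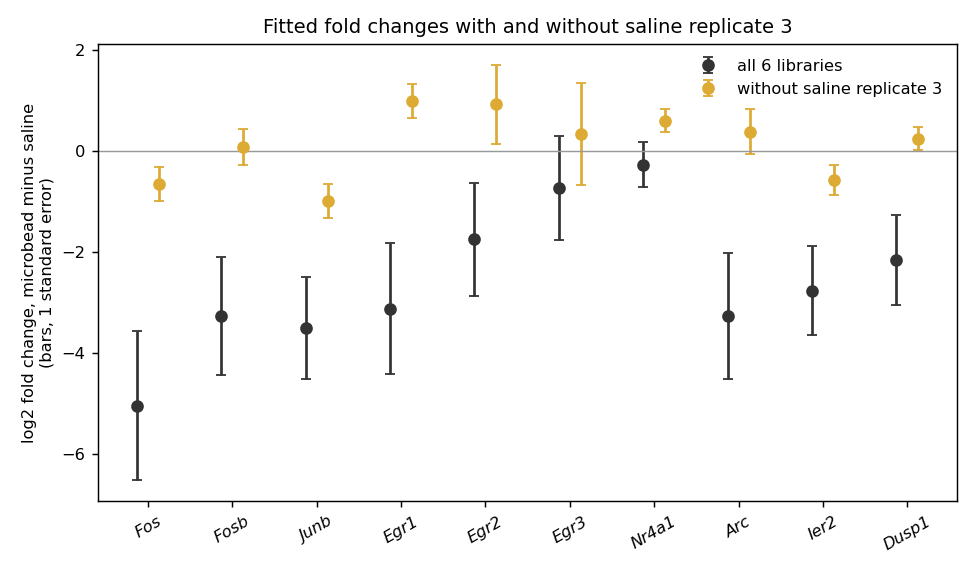
Fitted log2 fold change of microbead minus saline for each immediate early gene, with bars of 1 standard error, from all 6 libraries (dark) and without saline replicate 3 (yellow). With all 6 libraries the values run from -5.04 (*Fos*) to -0.27 (*Nr4a1*), and without saline replicate 3 from -0.99 (*Junb*) to 0.99 (*Egr1*).

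Other genes of the early response were taken from a list of 63 that holds no member, of which 61 were tested. Like the members, this list was chosen with earlier results of these data known. In saline replicate 3, 29 of the 61 lay more than 2-fold above the median of the other 5 libraries and 0 lay more than 2-fold below, with a median deviation of 0.85, and 40 were highest there. Of all tested genes, 5.57% lay more than 2-fold above, 14.9% more than 2-fold below, and 25.4% were highest there. The largest deviations on the log2 scale were those of *Cyr61* (6.63), a secreted matricellular protein, of *Zfp36* (5.33), which binds AU-rich messages and speeds their decay, and of *Socs3* (5.08), a brake on cytokine signalling. *Cebpb* (4.64), *Jun* (3.50), *Csrnp1* (3.49), *Klf2* (3.46) and *Maff* (2.76), all transcription factors, came next. *Jun*, the usual partner of *Fos* in AP-1, was at 70.2, 48.6 and 480 CPM in the saline and 34.2, 38.8 and 42.2 CPM in the microbead libraries. Chosen after their values were seen, *Npas4*, *Nr4a2*, *Fosl1*, *Homer1* and *Bdnf*, which respond to neuronal activity or belong to the same families, deviated by 0.28, 0.50, -0.11, 0.55 and 0.08 in saline replicate 3. Others on the list, also chosen after their values were seen, lay higher there: *Atf3* (2.64), *Egr4* (2.06), *Plk2* (1.31) and *Vgf* (1.02). The bZIP factors had a median deviation of 2.42, the feedback and RNA decay genes 1.12, the other transcription factors 0.99 and the effectors 0.48.

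Between the groups, edgeR called 0 of the 61 other early genes higher and 10 lower in microbead retina, against 6.46% and 6.31% of all tested genes, and the median log2 fold change was -0.65 against -0.03. At an unadjusted p under 0.05, 0 were higher and 30 lower, against 15.3% and 16.2% of all tested genes. DESeq2 called 0 higher and 21 lower (10.6% and 9.6% of all tested genes), and limma-voom 0 higher and 3 lower (6.62% and 5.86%). The 6 largest called were *Cebpb* (log2 fold change -4.46, adjusted p = 0.0175 from edgeR), *Socs3* (-3.69, adjusted p = 0.0464 from edgeR), *Cebpd* (-2.54, adjusted p = 0.0253 from edgeR), *Klf2* (-2.54, adjusted p = 0.0268 from edgeR), *Atf3* (-2.11, adjusted p = 0.0465 from edgeR) and *Klf4* (-1.76, adjusted p = 0.0478 from edgeR), with standard errors from 0.50 to 1.03. With limma-voom none of these 6 passed, at adjusted p from 0.0960 (*Cebpd*) to 0.286 (*Socs3*). *Cebpb* was at 7.22, 3.38 and 29.2 CPM in the saline and 0.463, 0.217 and 1.10 CPM in the microbead libraries, and *Cebpd*, its relative, at 112, 15.4 and 74.9 and at 13.9, 8.95 and 11.6 CPM, so that for both the groups did not overlap. Without saline replicate 3, 6 of the 61 were lower and 0 higher in edgeR, against 4.1% and 4.32% of all genes tested, and the median was -0.44. At an unadjusted p under 0.05 from edgeR, 2 were higher and 20 lower. Of all genes, 13.3% were higher and 27.4% passed in either direction. DESeq2 called 1 higher and 8 lower, where 7.89% of all genes were higher and 14.7% were called in either direction. With limma-voom 0 were higher and 4 lower, against 4.98% higher and 9.75% in either direction. *Cebpb*, *Cebpd* and *Klf2* were among the 6, at adjusted p = 0.0169, 0.0328 and 0.0291 from edgeR, while *Socs3*, *Atf3* and *Klf4* were not. The count of 10 became 19 and 9 without saline replicates 1 and 2, where 2621 of 17321 and 293 of 17424 genes were called. It became 1, 0 and 0 without microbead replicates 1, 2 and 3, beside 748 of 19211, 768 of 19138 and 46 of 19313 genes. In these fits, each without 1 microbead library, the 6 genes named had adjusted p from 0.0616 to 0.178 from edgeR. *Klf4* also lost its call without saline replicate 2, at adjusted p = 0.0657 from edgeR.

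The genes that lead to the members did not share their excess. Of 36 upstream signalling genes (the Ras-MAP kinase cascade, SRF and its partners, and the calcium and CREB pathway), all tested, the median deviation in saline replicate 3 was -0.01, with *Map2k1*, a MAP kinase kinase, 1.04 above and *Elk4*, an SRF partner chosen here after its value was seen, at -1.29. *Srf* and *Creb1* themselves, also chosen after their values were seen, deviated by 0.11 and -0.64. Between the groups edgeR called 1 of the 36 higher in microbead retina, *Crtc2*, a CREB coactivator (log2 fold change 1.03, adjusted p = 0.0370), and 2 lower, *Map2k1* (-0.84, adjusted p = 0.0253 from edgeR) and *Rps6ka2*, a kinase below the MAP kinases (-0.76, adjusted p = 0.0382 from edgeR). The 3 of 36 called compare with 12.8% of all tested genes. The count fell to 0 without saline replicate 2, saline replicate 3, microbead replicate 2 or microbead replicate 3 and to 1 without microbead replicate 1. The calls over all genes fell in the same fits, to 293 of 17424 without saline replicate 2 and 1480 of 17577 without saline replicate 3. They were 748 of 19211, 768 of 19138 and 46 of 19313 without microbead replicates 1, 2 and 3. Without saline replicate 3, 5 of the 36 had an unadjusted p under 0.05, where 27.4% of all genes did, DESeq2 called 3 (14.7% of all genes) and limma-voom 0 (9.75%). Transcript levels say nothing of the phosphorylation through which these proteins act.

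**Figure D4:**
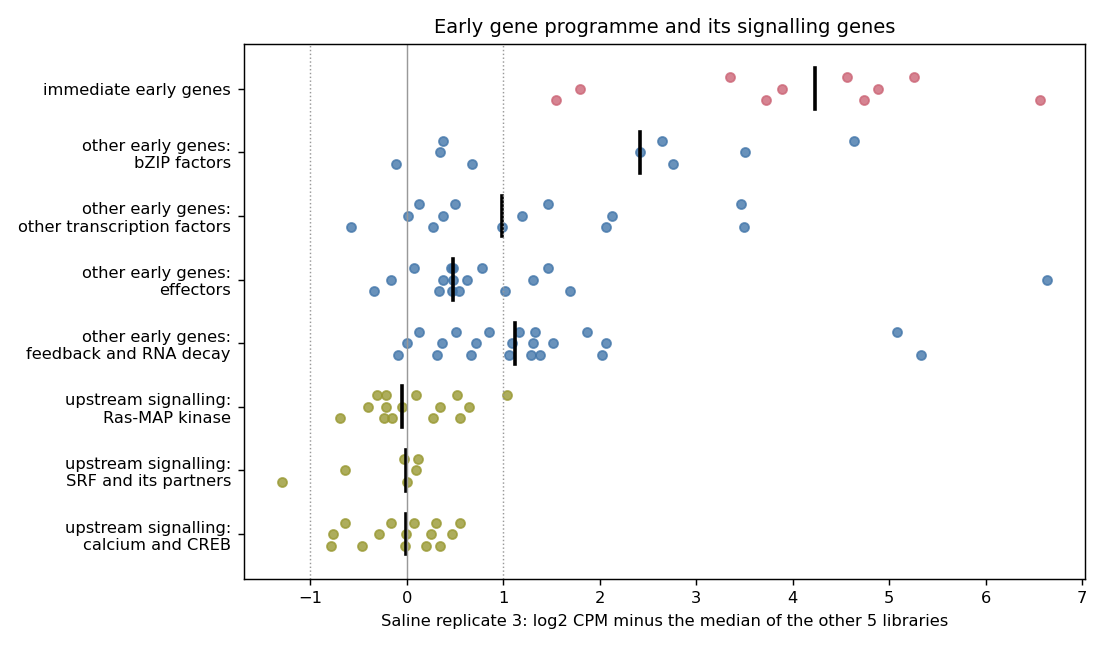
Deviation of saline replicate 3 from the median of the other 5 libraries (log2 CPM) for the 10 immediate early genes, 61 other early genes and 36 upstream signalling genes, 1 point a gene, with a bar at each median and dotted lines at 2-fold. The early gene rows reach up to 6.63 (*Cyr61*), while the signalling rows have medians near 0.

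The genes most like the members were sought among 7439 non-member genes whose mean reached 1 CPM, with a range of at least 1 log2 unit, by Pearson's r over the 6 libraries with the members' mean centred log2 CPM. They were *Zfp36* (r = 0.991), *Cyr61* (0.979), *Bhlhe40* (0.978), *Jun* (0.974), *Csrnp1* (0.971), *Apold1* (0.966), *Ctgf* (0.948), *Sox17* (0.946), *Txnip* (0.946) and *Ier3* (0.943), and 7 of the 10 are on the list of other early genes. All 10 were highest in saline replicate 3, which dominates r: without it r was from -0.44 (*Sox17*) to 0.65 (*Zfp36*). *Apold1* and *Sox17*, both expressed in endothelium, stood less far apart than *Fos* there, with deviations of 1.23 and 1.15. The list of other early genes was chosen with earlier results of these data known, so the 7 on it carry no weight of their own.

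Markers of several cell types, outside the neural retina and within it, peaked in saline replicate 3. The 7 lens genes in the table summed to 290.8 CPM in saline replicate 3, against 23.3 and 2.36 CPM in saline replicates 1 and 2 and 0.94 to 2.14 CPM in the microbead libraries. *Cryaa*, the lens alpha-A crystallin, chosen after its value was seen, had 585, 13 and 7377 counts in the saline and 0, 2 and 0 counts in the microbead libraries. Pigment epithelium genes summed to 170.9 CPM in saline replicate 3, 9.75 and 38.4 CPM in the other saline and 82.9 to 101.9 CPM in the microbead libraries, with 3 of its 7 genes highest in saline replicate 3. The Müller glia list was 1.78 times, the horizontal cell list 1.67 times, the amacrine list 1.56 times and the endothelial list 1.52 times the median of the other 5 libraries, and each of these sums was highest in saline replicate 3, as were 6 of 8, 3 of 3, 3 of 5 and 7 of 8 of their genes. The rod (1.29 times), retinal ganglion cell (1.27 times), pericyte and smooth muscle (1.27 times) and bipolar cell (1.25 times) sums were also highest there. Of their genes, 5 of 8, 5 of 11, 2 of 6 and 1 of 5 were highest there, as were 25.4% of all tested genes. The cone (1.03 times) and striated muscle (1.19 times) sums were not highest in saline replicate 3. The corneal epithelium sum was 5.93 CPM in saline replicate 3 and highest in saline replicate 2, at 10.1 CPM. The lists of microglia (0.80 times), astrocytes (0.90 times) and blood (0.77 times) were not raised, nor did the heat shock (1.19 times) and hypoxia (1.13 times) lists stand far apart. The heat shock sum was still highest in saline replicate 3. In whole tissue, more cells of a type and more RNA per cell cannot be told apart. The part of these markers in the levels of the immediate early genes was not tested.

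**Figure D5:**
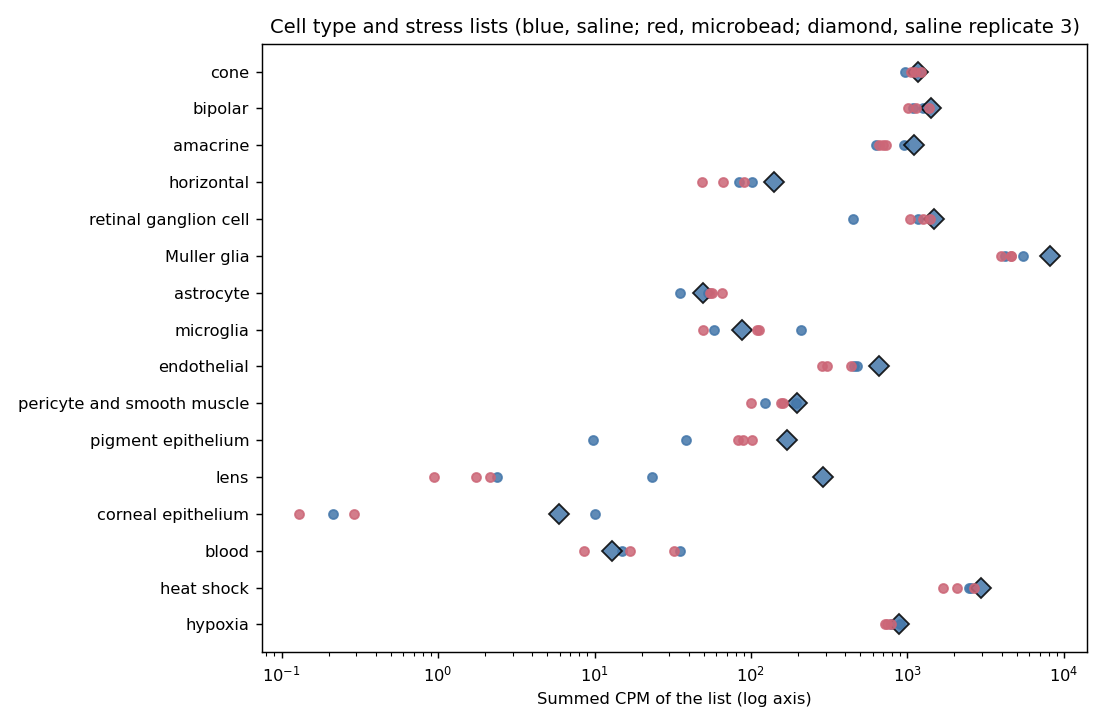
Summed CPM (log axis) of the cell type and stress lists in the 6 libraries, saline in blue and microbead in red, with saline replicate 3 as a diamond. The rod and striated muscle lists are left out, and a sum of 0 (corneal epithelium in microbead replicate 1) is not drawn. The lens list is at 290.8 CPM in saline replicate 3 and at most 23.3 CPM in the other 5 libraries, while the microglia, astrocyte and blood lists lie within the range of the others.

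Long intergenic and antisense noncoding RNAs went the other way in saline replicate 3. The median log2 deviation was -0.79 for 339 long intergenic noncoding RNAs and -1.05 for 359 antisense RNAs, against 0.09 for 13457 protein-coding genes, all with a mean of 1 CPM or more. For 192 processed pseudogenes it was 0.36. These medians were not computed for the other libraries. *Mir124a-1hg*, the host of a neuronal microRNA, was at 820, 507 and 59.1 CPM in the saline and 2489, 2464 and 2420 CPM in the microbead libraries, and was chosen after its value was seen. It was thus lower in every saline library, and lowest in saline replicate 3. The part of this shift in the levels of the 10 genes was not tested.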

How the data were processed

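Poly(A) RNA-seq counts of 3 saline- and 3 microbead-injected retinas were used, with groups set from the sample labels. The authors prepared stranded libraries, sequenced 100-base read pairs, aligned them with STAR 2.5.3a to GRCm38.p5 with GENCODE vM12, and deposited raw counts per gene from featureCounts 1.15.2. The deposited table also holds the authors' DESeq2 1.14 output (a mean signal, a log2 fold change, a linear fold change or ratio, p-values and a call), which was not used.

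Genes were filtered with filterByExpr (minimum count 10, total 15), scaled by TMM, and the groups were tested in edgeR 4.0.16 (R 4.3.3) by its quasi-likelihood method, two-sided, with Benjamini-Hochberg adjusted p-values and a threshold of 0.05. CPM were computed on TMM-scaled library totals; log2 CPM used a prior count of 2, and deviations are from the median of the other 5 libraries. At 3 counts the limit was from 0.0645 to 0.221 CPM, for counting error only. Alternatives were RLE, upper-quartile and library-total scaling, no filter, a filter of 10 counts in every library, limma-voom (limma 3.58.1), DESeq2 1.42.0, a prior count of 0.5, the replicate number as a block, and each library left out. No 2 libraries agreed within counting error (smallest chi-square/df 20.2).

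The members and gene lists were chosen with earlier results of these data known. Named are the members, the called genes of each related list (at most 6), the 8 early genes furthest from the other libraries in saline replicate 3, the 10 genes most alike, and the 2 most abundant markers of a list; others are said to be chosen after their values were seen. Gene models came from GENCODE vM21 (99.67% of tested genes matched) and promoters from RefSeq. The steps were tested on simulated data. The injected volume is given as 1 μl in the labels.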

Additional observations from a re-analysis of the deposited data

How the results depend on the processing

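The median deviation of the 10 members in saline replicate 3 stayed between 4.10 and 4.23 under RLE, upper-quartile and library-total scaling and a prior count of 0.5, and no scaling, filter or tool turned the sign of a member's log2 fold change, though limma-voom moved it from -5.04 to -2.62 for *Fos* and from -3.12 to -0.92 for *Egr1*. Only leaving out saline replicate 3 did. Over the 6 fits that omit 1 library each, values of log2 fold change ran from -3.83 to 0.074 for *Fosb*, -3.69 to 0.99 for *Egr1*, -2.37 to 0.93 for *Egr2*, -1.54 to 0.34 for *Egr3*, -0.58 to 0.60 for *Nr4a1*, -3.82 to 0.39 for *Arc* and -2.66 to 0.24 for *Dusp1*, and of the genes most alike from -4.36 to 0.46 for *Zfp36* and -0.98 to 0.27 for *Ctgf*, the highest value being that without saline replicate 3 each time. The 2261 genes past the threshold became 3720 with no filter and 3582 with DESeq2, and ran from 46 (without microbead replicate 3) to 2621 (without saline replicate 1) with a library left out. The 10 other early genes became 30 with no filter, 21 with DESeq2 and 3 with limma-voom, and ran from 0 to 19 with a library left out. The 3 signalling genes became 5 with DESeq2, and ran from 0 to 3 with a library left out. Among the members, 7 were called with no filter, where 3720 of 31169 genes were. With at least 10 counts in every library, 2 of the 8 left were called, where 2210 of 14710 genes were. Under each other scaling and with limma-voom 0 were called, where 1936 to 2227 of 17707 genes were. Without saline replicate 1, 7 members were called, beside 2621 of 17321 genes. Without saline replicate 2, 3 were called, beside 293 of 17424 genes. With any other library left out 0 were called, beside 46 to 1480 genes. DESeq2 called 1 and left 6 without an adjusted p. The cause of these shifts was not tested. With the replicate number as a block, 905 genes, 4 other early genes, 0 signalling genes and 0 members were past the threshold, and the log2 fold change was -2.31 for *Fos* and -0.63 for *Egr1*. The numbers are not shown to pair samples. Log2 CPM minus the mean of the library's own group correlated at -0.04, 0.14 and 0.01 between same-numbered libraries. Of the 3 numbers, 1 was its own best match. Every library counted *Fos* at least 149 times, so depth limits mainly *Egr2* and *Egr3*, whose lowest counts were 4 and 0.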
